A study of Rattus norvegicus with 40 samples.

Results

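The comparison described here is the kidney transcriptome of the stroke-prone spontaneously hypertensive rat strain SHRSP/Izm set against that of the normotensive strain WKY/Izm, in animals that received a vehicle and no drug. The arrays were chosen by their compound label: 16 of the 40 arrays of the series came from rats given H2O, Solvent A (PEG300, EtOH and NaHCO3), Solvent B (NaOH) or Solvent C (MC). There were 8 arrays of each strain, 2 for each of the 4 vehicles, and all rats were males 16 weeks old. An array's label lists a pair of animals without saying if their RNA was mixed, so the spread between arrays may be in part technical, and the p-values measure only that spread. The other 24 arrays came from both strains given enalapril (20 mg/kg/day), candesartan (5 mg/kg/day), chlorothiazide (20 mg/kg/day), carvedilol (50 mg/kg/day), amlodipine (20 mg/kg/day) or hydralazine (10 mg/kg/day). They share no array with the vehicle comparison and are used here as a second set of samples of the same strains. A single fit of all 40 arrays gave both comparisons their estimate of the spread, so their calls are not independent.

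SHRSP and WKY both descend from Wistar rats kept in Kyoto. SHRSP was bred for high blood pressure and stroke, and its kidneys develop vascular and tubular damage with age. Strain differences in kidney RNA can follow an inherited change at the gene itself, or can come with hypertension and the state of the tissue. Array comparisons of strains also depend on the probe, since a CodeLink array carries short fixed probes and many genes are read by 1 of them only.

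Total RNA was labelled with Cy5 and hybridised to 1-colour CodeLink arrays. Between 59.9% and 72.2% of the 33849 probes carried the scanner's good flag on the 16 vehicle arrays, and 24993 probes were tested. Levels are log2 intensities on a scale where the median intensity of an array is near 1 before the log, with a floor at -1.40. A difference is the mean of the 4 vehicle differences, SHRSP minus WKY, with its standard error (SE), and a call needs a Benjamini-Hochberg adjusted p under 0.05 from limma. The precision is limited by 8 arrays a strain. The tissue label was borne out by the markers of nephron segments: 28 proximal tubule genes summed to intensities of 2609 to 2795 in SHRSP and 2630 to 2866 in WKY, and the proximal tubule gene Kap read 8.49 to 8.69 in SHRSP and 8.45 to 8.69 in WKY. Both arrays of each strain and vehicle were scanned in 1 session, so each vehicle's difference is a value within a session, and vehicle and session cannot be told apart. This does not hold for every drug: the SHRSP enalapril arrays were scanned in session 1 and the WKY enalapril arrays in sessions 1 and 5.

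The strains differed at 5453 of the 24993 tested probes (21.8%), 2786 higher in SHRSP (11.1%) and 2667 lower (10.7%). Most differences were small: the median size among called probes was 0.31, and 1003 called probes differed by at least 1.5-fold, 411 by at least 2-fold, 128 by at least 4-fold and 50 by at least 8-fold. Called probes kept 1 sign in the 4 vehicles in 86.6% of cases, against 17.5% of the 19540 probes not called. Much of this contrast follows from the choice, since a call rests on the mean of the same 4 differences. In all, 4722 probes were called with 1 sign throughout (18.9%). For 1160 probes (4.64%) a call went with 8 SHRSP arrays that did not overlap with the 8 WKY arrays. Taken singly, with 2 arrays a strain, H2O gave 2530 calls (10.1%), Solvent A 1848 (7.39%), Solvent B 1993 (7.97%) and Solvent C 1724 (6.9%). A core of 767 probes passed in each vehicle on its own, 378 higher and 389 lower in SHRSP, of which 436 have a gene name. Across the called probes, differences in any 2 vehicles correlated at Pearson r 0.89 to 0.94, a description over probes that were called from the same values. In the drug arrays 6530 probes (26.1%) differed between the strains. There 95.9% of the probes called in the vehicle arrays had the same sign and 3992 were called the same way.

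The clearest strain differences were those that several probes of a gene showed together. Of 2862 genes with 2 or more tested probes, 112 had every probe higher in SHRSP (3.91%) and 98 every probe lower (3.42%). Of these 210 genes, 176 kept the sign in all 4 vehicles on every probe, 94 higher and 82 lower, and 146 were called on every probe in the drug arrays too. On 28 of them, 14 in each direction, the strains overlapped on no probe. At least 2-fold on every probe were 5 genes higher in SHRSP and 3 lower.

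Among the genes higher in SHRSP, Cyp26b1, an enzyme that breaks down retinoic acid, read from 1.48 over a median of 1.72 to 2.18 in the 8 SHRSP arrays and from -0.07 over 0.47 to 0.71 in WKY on its first probe. Its second probe read 0.82, 1.09 and 1.47 (lowest, median and highest) in SHRSP and -0.46, -0.11 and 0.13 in WKY. The strains did not overlap on either probe, and the differences were 1.34 ± 0.11 (SE, n = 8 and 8; limma, adjusted p = 1.53e-09) and 1.23 ± 0.08 (adjusted p = 7.55e-11). Ccn1, a secreted matrix protein that binds integrins and is induced by stretch and growth factors, read 3.53, 4.09 and 4.29 in SHRSP against 0.00, 0.48 and 1.87 in WKY on 1 probe and -0.16, 0.49 and 1.29 against -0.96, -0.50 and -0.17 on the other. Neither probe let the strains overlap, but they differed in size, with 3.33 ± 0.15 (limma, adjusted p = 2.4e-14) and 1.01 ± 0.13 (adjusted p = 1.64e-06).

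Tnfrsf12a, the receptor of the cytokine TWEAK, which rises in injured tubules, read 2.26, 2.51 and 2.95 in SHRSP and 1.10, 1.32 and 1.53 in WKY on its brighter probe, and 0.29, 0.48 and 1.19 against -0.70, -0.37 and -0.04 on the other. All SHRSP arrays lay above all WKY arrays on both, by 1.27 ± 0.14 (limma, adjusted p = 3.32e-07) and 0.94 ± 0.16 (adjusted p = 8.74e-05). Fcgr1a, the high-affinity receptor for immunoglobulin G on macrophages, read 3.36, 3.48 and 3.83 in SHRSP and 2.60, 2.78 and 3.02 in WKY, and on its second probe 1.45, 1.57 and 1.82 against 0.70, 0.87 and 1.22. The strains were again apart on both probes, with differences of 0.71 ± 0.05 (limma, adjusted p = 5.67e-11) and 0.68 ± 0.08 (adjusted p = 7.9e-07).

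The rule for agreeing genes named 8 more that were higher. Fhip2a, which takes part in membrane trafficking, differed by 1.85 and 1.76, with vehicle differences of up to 2.68, in H2O, on the first probe. Ccdc92 differed by 1.22 and 1.30, Gtpbp4, a GTP-binding protein of ribosome assembly, by 1.09 and 1.89, Kif15, a mitotic motor, by 0.82 (with every WKY array at the floor, on which this size depends) and 1.61, and Prrg4 by 0.77 and 2.05. Dmrtc1c1 differed by 0.83 and 0.90 and Fibin by 0.68 and 0.66. The strains overlapped on the Prrg4 probe at 0.77, the Dmrtc1c1 probe at 0.83 and the Fibin probe at 0.66. Ccl20, a chemokine that attracts lymphocytes and dendritic cells through CCR6, stood apart from these: its differences of 0.86 (limma, adjusted p = 0.0109) and 0.69 (adjusted p = 0.047) came with strains that overlapped on both probes, and in the drug arrays they were 0.13 and 0.00, neither called.

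The largest difference carried by every probe of a gene was in Ucp1, the uncoupling protein of brown fat mitochondria. It read -0.68, 0.04 and 0.54 in SHRSP and 3.25, 4.18 and 4.68 in WKY on 1 probe, and -0.80, -0.46 and -0.05 against 1.76, 2.51 and 3.15 on the other. Every WKY array lay above every SHRSP array, and SHRSP was lower by 4.10 ± 0.20 on the first, a difference of -4.10 or 17.2-fold (limma, adjusted p = 1.11e-13), and the second probe gave -2.93 ± 0.15 (adjusted p = 3.89e-13). Other fat markers did not go with it. Of 9 adipose genes measured 3 were higher (Lpl 2.78, Cfd 0.53, Lipe 0.21) and Ucp1 alone lower, Adipoq read 1.01 to 2.12 in SHRSP and 1.57 to 2.10 in WKY (difference -0.09, not called), and the 9 summed intensities ran from 387 to 449 in SHRSP and from 336 to 465 in WKY. On the linear scale Adipoq, Lpl, Lipe and Ucp1 are small parts of these sums, which brighter members of the list mostly make up. The sums therefore cannot show whether the amount of fat differed. In whole tissue, fewer cells of a type and less RNA per cell cannot be told apart.

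Ros1, a receptor tyrosine kinase, read -1.15, -0.92 and -0.51 in SHRSP and 0.77, 1.58 and 1.85 in WKY on its first probe. The strains were apart, by -2.41 ± 0.09 (limma, adjusted p = 4.22e-16), and the second probe, with a good flag on 3 of 8 SHRSP arrays, differed by -1.70. The SHRSP median of that second probe was at the floor, on which its size depends. Retsat, which saturates retinol, read 4.29, 4.77 and 4.98 in SHRSP and 5.42, 5.62 and 5.80 in WKY, and 5.63, 5.71 and 5.89 against 6.32, 6.55 and 6.76 on its second probe. Both probes separated the strains, by -0.87 ± 0.06 (limma, adjusted p = 3.69e-11) and -0.79 ± 0.04 (adjusted p = 3.95e-13). With Cyp26b1, which acts on the acid made from retinol, Retsat is the second enzyme of retinoid metabolism among the named agreeing genes.

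Vwf, the von Willebrand factor that endothelial cells store and release, was lower in SHRSP. Its probes read 2.38, 2.91 and 3.32 in SHRSP against 3.46, 3.70 and 3.86 in WKY, and 1.99, 2.28 and 2.59 against 2.86, 3.10 and 3.30. The strains did not overlap, and both differences were -0.79 ± 0.07 (limma, adjusted p = 2.74e-09 and 1.77e-08). Casr, the calcium-sensing receptor of the thick ascending limb, was lower by -0.57 and -0.71 with arrays that overlapped on both probes. Of the remaining genes, Prss35, a serine protease-like protein, differed by -1.39 and -2.22 (the latter with every SHRSP array at the floor, on which its size depends), Lrrc8b, a subunit of volume-regulated anion channels, by -0.73 and -0.84, Car14, a membrane carbonic anhydrase, by -0.64 and -0.70, and Sqor, which oxidises hydrogen sulfide in mitochondria, by -0.73 and -0.63. Cfap300 differed by -0.62 and -0.66, Cstpp1 by -0.60 and -0.81 and Gpm6a by -0.57 and -0.58. The strains overlapped on the Lrrc8b probe at -0.84, the Car14 probe at -0.64, the Sqor probe at -0.73 and the Gpm6a probe at -0.57.

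**Figure D1:**
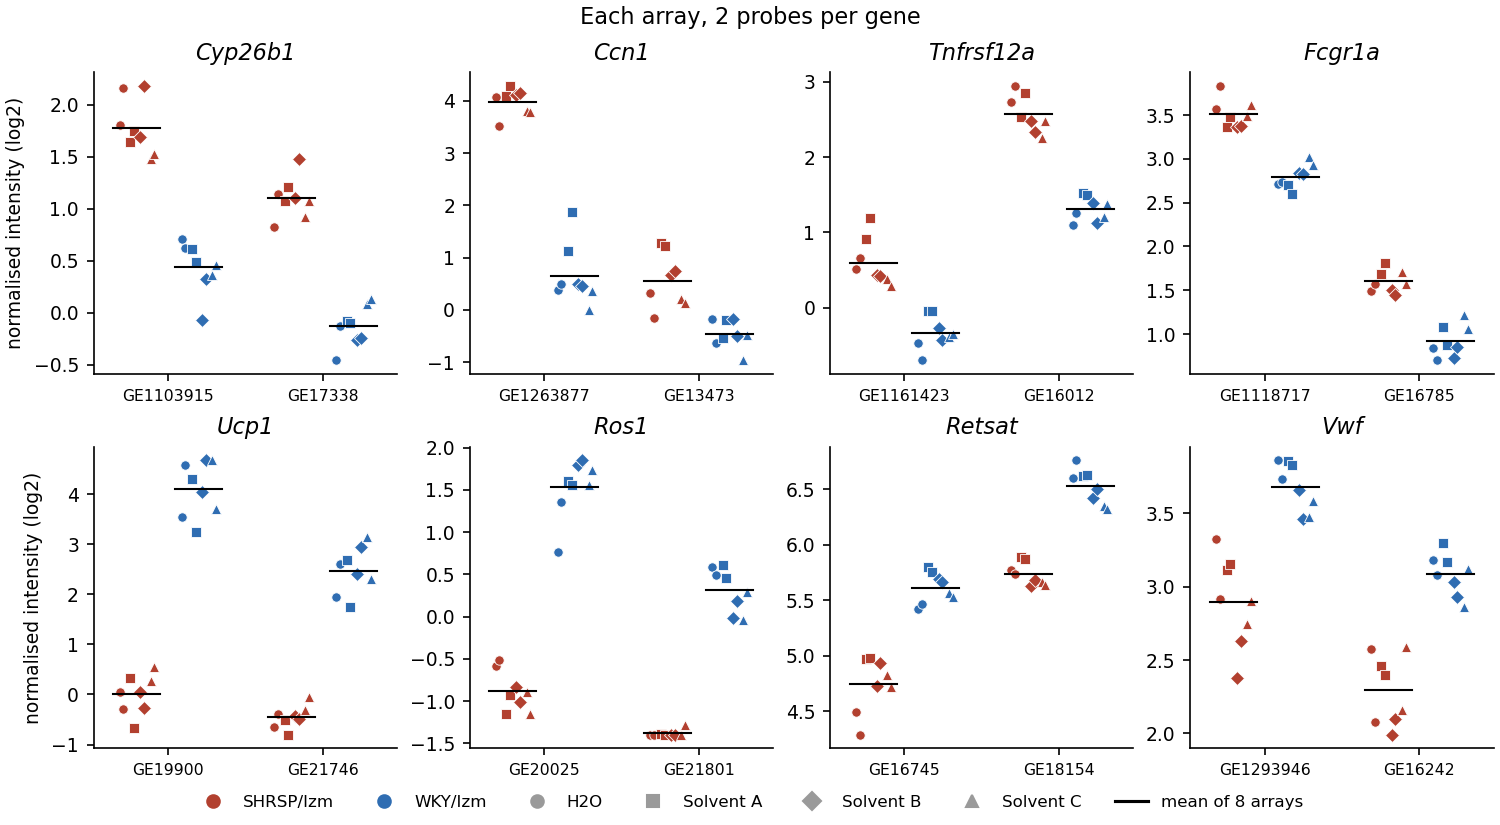
Each point is 1 vehicle array for the 2 probes of 8 of the genes described, with normalised log2 intensity on the vertical axis, SHRSP/Izm in red, WKY/Izm in blue, symbols by vehicle and bars at the mean of 8 arrays. In no panel do the red and blue points of a probe overlap; on the 2 Ucp1 probes the SHRSP arrays reach 0.54 and -0.05 and the WKY arrays start at 3.25 and 1.76.

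**Figure D2:**
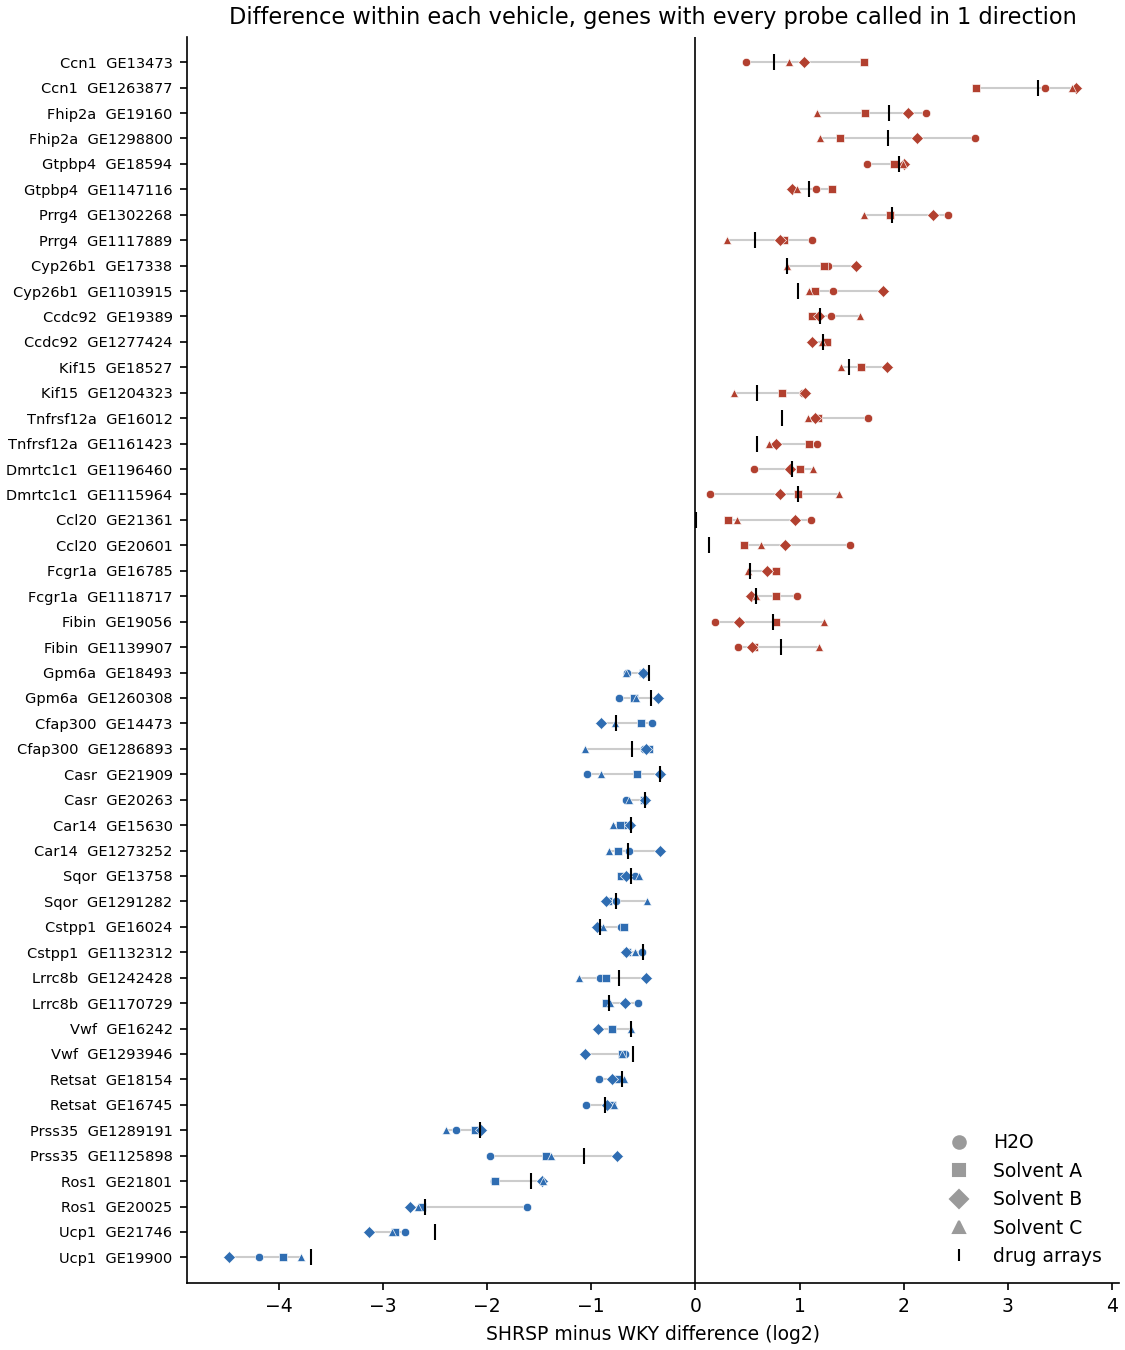
Each row is 1 probe of the 24 named genes whose probes all passed in 1 direction, with SHRSP minus WKY (log2) in each of the 4 vehicles as points and in the drug arrays as a black bar. All points of a gene lie on 1 side of 0, and the widest spread of vehicles on the higher side is that of the first Fhip2a probe, reaching 2.68 in H2O.

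Agreement between probes did not grow with the size of a difference beyond 1 on the log2 scale. Among the 984 genes with 2 or more probes and at least 1 call, every probe was called one way in 21.3%. Sorted by their largest called probe, agreement was 16% of 775 genes under 0.5, 48.1% of 131 genes from 0.5 to 1, 28.6% of 49 from 1 to 2, 26.7% of 15 from 2 to 3 and 35.7% of 14 above 3. The median ratio of the other probes' mean difference to that of the largest probe was 0.37 in the smallest class and 0.33, 0.09, 0.04 and 0.03 in the classes above it. The largest probe sets both the class and the divisor of the ratio, so part of this fall is built in. Of 29 genes with a called probe of at least 4-fold, 16 had every other probe under 1.2-fold, and in 5 (Ucp1, Ros1, Prss35, Agtrap and Ccn1) the others had the same sign and averaged at least 2-fold.

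Genes whose probes disagreed in call or in size included several with known roles in the kidney. Vcam1, an adhesion molecule of endothelium and injured tubules, differed by -3.40 on 1 probe and -0.06 on the other. The SHRSP median of the first was at the floor, on which that size depends. Fdft1, squalene synthase, differed by -4.99 and -0.31, Atf6, a transcription factor of the unfolded protein response, by 3.17 and 0.01, Fmo2, a flavin monooxygenase, by 3.31 and 0.32, and Lcp1, the leukocyte actin-bundling protein plastin, by 2.25 and 0.42. From 1 such probe, a difference in transcript level and a difference in how the strain's transcript meets that probe cannot be told apart; probe sequences were not used here. In 39 genes probes were called in opposite directions. The widest gap was in Tgm2, a transglutaminase that cross-links proteins: 1 probe had no good flag on any SHRSP array and was at least 79.4-fold lower, while the other was higher by 0.46 (limma, adjusted p = 2.72e-07). Trps1 differed by 2.11 and -0.57, Gart by 1.68 and -0.34, Ctse by 0.32 and -1.59 (another of its probes, at 0.06, was not called), and Spire1 by 0.19 and -1.67. The sixth, Havcr1, is described with the injury genes. On the Ctse probe at -1.59 every SHRSP array was at the floor, and on the Trps1 probe at -0.57 the SHRSP median was. Both sizes depend on the floor.

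**Figure D3:**
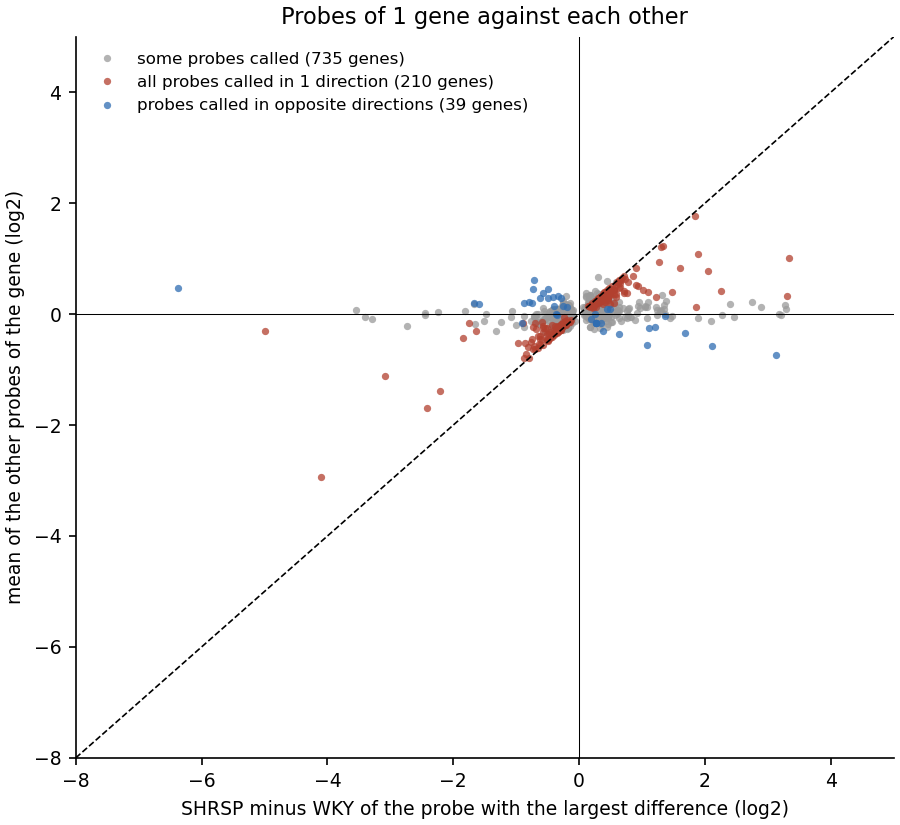
For each of the 984 genes with 2 or more probes and at least 1 call, the called probe with the largest difference (horizontal, log2) is set against the mean of the gene's other probes (vertical, log2). Points on the dashed line are genes whose probes agree in size. Many of the largest differences lie along the zero line instead, among them Vcam1 at -3.40. Tgm2 is the blue point at -6.38, and the sizes of Vcam1 and Tgm2 depend on the floor.

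Genes read by 1 probe have no such check. Among them, 333 had a good flag on all 16 arrays, a call, 1 sign in the 4 vehicles and strains that did not overlap, 196 higher and 137 lower in SHRSP. Ephx2, the soluble epoxide hydrolase that inactivates epoxides of arachidonic acid with vasodilator action, read 1.95, 2.12 and 2.28 in SHRSP and 5.07, 5.22 and 5.36 in WKY. The strains stood far apart with little spread inside either, and the difference was -3.09 ± 0.05, or 8.53-fold lower (limma, adjusted p = 8.29e-24), with vehicles from -3.24 to -3.02 and -3.04 in the drug arrays. Dpt, dermatopontin of the extracellular matrix, read 2.26, 2.82 and 3.03 in SHRSP and -0.87, -0.19 and 0.12 in WKY, a difference of 2.99 ± 0.13 (adjusted p = 6.12e-15). Lpl, lipoprotein lipase, read 1.76, 2.15 and 2.53 in SHRSP and -1.04, -0.64 and -0.07 in WKY, also without overlap, and differed by 2.78 ± 0.13 (adjusted p = 7.88e-14).

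Others of this kind that were higher in SHRSP were Spg11, a protein of lysosome recycling (3.88), the collagen-binding integrin subunit Itga1 (2.56), Cox7a2l, an assembly factor of respiratory supercomplexes (2.33), the ribosomal protein gene Rps16 (2.28), Med20 of the mediator complex (2.22) and Slfn4 (2.14). Lower were the pyrimidine nucleotidase Nt5c3a (-4.33), the vitamin E carrier afamin, Afm (-3.80), Albfm1 (-3.12), Chmp1b of the ESCRT machinery (-2.76), the mitochondrial chaperone Trap1 (-2.75), Bola3, which serves iron-sulfur cluster assembly (-2.65), and the villin-like gene Vill (-2.44). Each of these 16 genes was called with the same sign in the drug arrays.

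Probes with a good flag on every array of 1 strain and on none of the other have only a bound. Higher in SHRSP were Plpp5 by at least 32.5-fold, Fry by at least 8.63-fold, Hsd3b2 by at least 3.45-fold, Slc35e4 by at least 3.06-fold, RGD1309362 by at least 2.91-fold and Ldha by at least 2.58-fold. Lower were Tgm2, Anxa13 by at least 32.8-fold, Erich1 by at least 13.6-fold, Arhgef28 by at least 11.1-fold, Rcbtb2 by at least 9.34-fold and Pla2g4a, the cytosolic phospholipase that frees arachidonic acid, by at least 6.24-fold. Second probes did not show the same for Hsd3b2 (-0.08), Fry (-0.01), Arhgef28 (0.06) and Rcbtb2 (-0.08), and the brighter probe of Ldha, lactate dehydrogenase, differed by 0.40.

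Gene lists were read with 1 probe for each gene, against 13.1% of all 10455 genes higher in SHRSP, 11.4% lower and a median difference of 0.00. Macrophage and dendritic cell genes were the list with the largest share of higher members: 18 of 23 measured were higher and none lower, with a median difference of 0.44. Of the 18, 17 kept the sign in the 4 vehicles, 9 had strains that did not overlap, and 13 were called in the drug arrays as well. Over all called probes, 86.6% kept the sign and 3992 of 5453 were called the same way in the drug arrays. Calls without overlap made up 1160 of the 24993 tested probes (4.64%). The 23 intensities summed to 196 to 236 in SHRSP and 130 to 157 in WKY. Lyz2, macrophage lysozyme, read 3.18, 4.33 and 4.86 in SHRSP and 2.05, 3.32 and 3.74 in WKY, arrays that overlapped across vehicles while the difference within vehicles ran from 0.72 to 1.26 (mean 1.07 ± 0.07; limma, adjusted p = 1.2e-11). Fcgr3a, a low-affinity receptor for immunoglobulin G, read 2.34, 2.51 and 3.05 against 1.34, 1.66 and 1.91, without overlap, and differed by 0.99 ± 0.06 (adjusted p = 3.0e-12).

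Further members that were higher were the osteoactivin gene Gpnmb (1.04), the beta-glucan receptor Clec7a (0.66), the protease Ctss (0.61), the lysosomal glycoprotein Cd68 (0.53), the complement subunits C1qa (0.49), C1qc (0.43) and C1qb (0.40), the adaptor Tyrobp (0.44), the lipopolysaccharide receptor Cd14 (0.39), the pan-leukocyte gene Ptprc (0.26) and the CSF1 receptor Csf1r (0.21). The 5 that did not pass were Cd163 (0.15), Adgre1 (0.12), Itgam (0.05), Lgals3 (0.03) and Ccr2 (-0.01). Lymphocyte genes did not move the same way: none of 16 was higher and 3 were lower, the antibody joining chain Jchain (-0.85), Cd2 (-0.42) and Il2rb (-0.19), with sums of 15.4 to 20.4 in SHRSP and 19.1 to 23.6 in WKY. Of 7 neutrophil and mast cell genes 1, Fcgr3a, was higher and none was lower.

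MHC class II molecules are heterodimers that present peptides on macrophages, dendritic cells and B cells. In the rat the RT1-B and RT1-D genes encode their chains, and RT1-DM and RT1-DO take part in the control of peptide loading. Cd74 is the invariant chain and Ciita the transactivator that the promoters need. All 9 class II genes measured were higher in SHRSP, and 6 separated the strains. RT1-Da read 5.55, 5.66 and 5.85 in SHRSP and 4.65, 4.95 and 5.28 in WKY, a difference of 0.72 ± 0.05 (limma, adjusted p = 8.1e-11). Cd74 read 6.90, 7.30 and 7.56 against 6.27, 6.57 and 6.79, also without overlap, and differed by 0.77 ± 0.06 (adjusted p = 8.6e-10). RT1-Db1 differed by 0.66, RT1-Ba by 0.65, RT1-Bb by 0.99, RT1-DMa by 0.87, RT1-DMb by 0.58, RT1-DOa by 0.94 and Ciita by 0.58. RT1 genes have close relatives and differ in sequence between strains, so that single RT1 values are uncertain; Cd74 and Ciita are not RT1 genes.

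The other genes of the same list, mostly of class I and peptide transport, did not all go one way. Of these 15 members 2 were higher, Ctss and the immunoproteasome subunit Psmb8 (0.20), and 2 lower, RT1-N3 (-1.26) and RT1-S3 (-0.21). B2m (-0.03), Tap1 (0.05), Tap2 (-0.17), Tapbp (0.10) and Psmb9 (-0.04) did not pass. The whole list of 24 counted 11 higher and 2 lower, with a median of 0.10, and 12 of its 13 calls were made in the drug arrays too. RT1-N3, at 0.82, 1.14 and 1.27 in SHRSP and 2.25, 2.39 and 2.48 in WKY, separated the strains in the opposite direction to the class II genes.

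Because the class II chain genes are known to share a promoter module, their promoters are shown, 250 bases before to 50 after the gene start, from RefSeq on assembly GRCr8. Capitals mark CTGATTGG, an inverted CCAAT (Y-box) sequence of the module, searched on both strands.
RT1-Ba, chr20:4576807-4577106, plus strand: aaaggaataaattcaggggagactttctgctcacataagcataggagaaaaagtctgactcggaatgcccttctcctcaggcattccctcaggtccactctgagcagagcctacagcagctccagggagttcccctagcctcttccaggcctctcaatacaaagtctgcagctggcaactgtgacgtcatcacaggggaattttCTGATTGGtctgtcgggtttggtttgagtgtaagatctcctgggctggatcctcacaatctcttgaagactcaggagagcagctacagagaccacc
RT1-Bb, chr20:4604069-4604368, minus strand: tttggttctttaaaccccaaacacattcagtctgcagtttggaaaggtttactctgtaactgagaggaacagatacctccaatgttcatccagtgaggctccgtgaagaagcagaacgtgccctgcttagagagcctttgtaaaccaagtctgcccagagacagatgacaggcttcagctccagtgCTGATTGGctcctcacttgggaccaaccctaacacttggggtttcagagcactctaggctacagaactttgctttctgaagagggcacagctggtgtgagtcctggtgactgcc
RT1-Da, chr20:4515165-4515464, plus strand: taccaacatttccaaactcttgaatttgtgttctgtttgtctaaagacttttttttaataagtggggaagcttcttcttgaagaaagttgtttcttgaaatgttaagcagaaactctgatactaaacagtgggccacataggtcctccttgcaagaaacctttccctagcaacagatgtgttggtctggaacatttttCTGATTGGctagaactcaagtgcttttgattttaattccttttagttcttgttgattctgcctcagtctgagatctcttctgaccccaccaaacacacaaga
RT1-Db1, chr20:4560113-4560412, minus strand: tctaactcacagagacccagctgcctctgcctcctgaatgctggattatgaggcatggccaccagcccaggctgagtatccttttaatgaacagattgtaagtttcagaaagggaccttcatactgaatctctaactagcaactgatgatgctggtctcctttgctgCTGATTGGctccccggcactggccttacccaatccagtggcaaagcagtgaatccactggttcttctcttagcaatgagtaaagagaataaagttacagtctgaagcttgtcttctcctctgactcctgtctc

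Each of these 4 windows holds the motif 1 time, starting 46 bases before the gene start in RT1-Ba, 64 in RT1-Bb, 52 in RT1-Da and 83 in RT1-Db1. RefSeq gave a promoter for 7 measured class II genes, of which 5 hold it, RT1-DOa being the other, and RT1-DMa and Cd74 do not. Among all 33469 promoters of the same length 1172, or 3.5%, hold it. The match describes the reference sequence and says nothing of either strain's own promoter. The 4 chain genes are also next to each other among the genes measured, in the order RT1-Da, RT1-Db1, RT1-Ba and RT1-Bb.

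**Figure D4:**
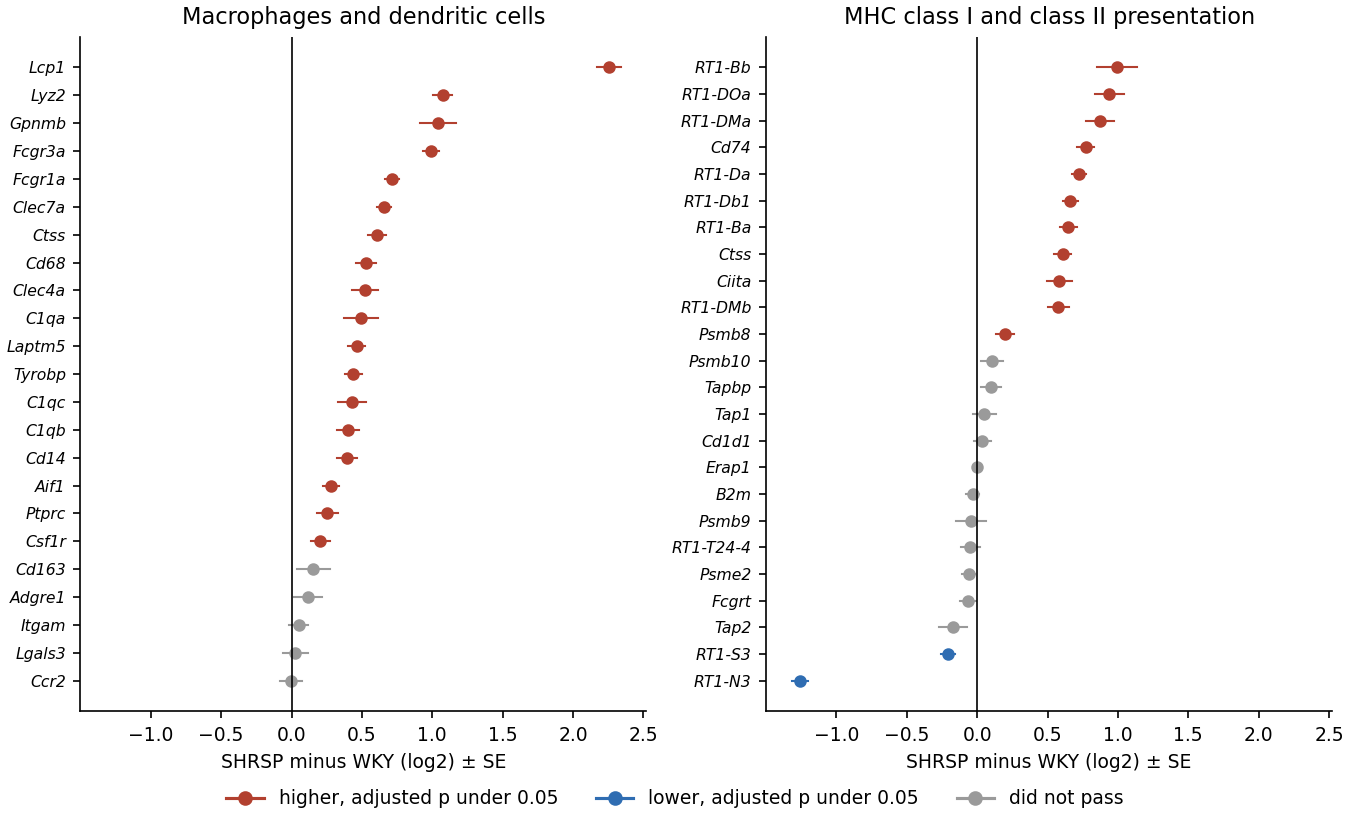
Rows are the measured members of the macrophage and dendritic cell list (left) and the MHC list (right), and the horizontal axis is SHRSP minus WKY (log2), with bars for the SE, red for higher and blue for lower calls. The 18 red macrophage genes run from 0.21 to 2.25; on the right the class II genes fill the top, and most class I and peptide transport genes lie near 0, with RT1-N3 at -1.26 the exception. The highest macrophage value is that of Lcp1, whose second probe was at 0.42.

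Genes that tubules express after injury were also mostly higher in SHRSP: 15 of 25 measured were higher and 3 lower, with a median of 0.42. Clu, clusterin, a secreted chaperone, read 4.03, 4.54 and 5.14 in SHRSP and 3.20, 3.40 and 3.57 in WKY, without overlap, and differed by 1.15 ± 0.09 (limma, adjusted p = 2.9e-10). Lcn2, the iron-binding lipocalin used as a marker of tubular damage, read 1.92, 2.89 and 4.82 against 1.92, 2.03 and 2.35, so the strains overlapped at the low end (1.00 ± 0.18, adjusted p = 0.00028). Spp1, osteopontin, read 5.71, 6.19 and 7.18 in SHRSP and 5.20, 5.58 and 5.68 in WKY, a difference of 0.68 ± 0.14 (adjusted p = 0.00087). Also higher were Hmox1, heme oxygenase (0.82), the cell cycle inhibitor Cdkn1a (0.67), Timp1 (0.66), the keratin Krt19 (0.55), the hyaluronan receptor Cd44 (0.49), the annexins Anxa2 (0.45) and Anxa1 (0.43), vimentin, Vim (0.42), Atf3 (0.37) and Sox9 (0.29). Lower were Vcam1 and Havcr1, each on the 1 of its 2 probes that stood for it in the list, and the trefoil peptide Tff3 (-0.30).

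Havcr1, kidney injury molecule 1, gave opposite answers on its 2 probes. On the first, the 8 SHRSP arrays read 1.78, 3.55 and 5.61 (lowest, median and highest) and the WKY arrays 0.15, 0.50 and 0.99. SHRSP was higher without overlap, by 3.13 ± 0.30 (limma, adjusted p = 2.5e-08), and most in H2O, where the 2 SHRSP arrays read 4.13 and 5.61. On the second, SHRSP read 0.56, 1.49 and 2.90 and WKY 1.81, 2.58 and 2.82, with overlap and a difference of -0.74 ± 0.20 (adjusted p = 0.0102). Both probes ordered the SHRSP arrays alike at the extremes, with 1 H2O array highest and 1 Solvent C array lowest.

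Matrix genes were divided. Of 34 fibroblast and matrix genes 15 were higher and 4 lower, with a median of 0.13, and their sums overlapped, 415 to 506 in SHRSP and 451 to 516 in WKY. Higher were the membrane metalloproteinase Mmp14 (0.87), the gelatinase Mmp9 (0.69), the growth factor-induced Ccn2 (0.64), Tnc, tenascin C (0.60), elastin, Eln (0.52), biglycan, Bgn (0.52), fibronectin, Fn1 (0.44), and the cross-linking enzyme Lox (0.43). Mgp, the matrix Gla protein that inhibits calcification, read 5.43, 5.84 and 6.17 in SHRSP and 6.76, 6.86 and 7.13 in WKY, lower without overlap by -1.07 ± 0.05 (limma, adjusted p = 6.7e-15), while its second, dimmer probe differed by 0.06 and was not called. Mmp2 (-0.66, with -0.25 and -0.07 on its dimmer probes), Timp2 (-0.34) and decorin, Dcn (-0.28), were also lower, and the fibrillar collagens Col1a1 (-0.13) and Col1a2 (0.01) did not pass.

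Some injury and matrix genes had a more positive strain difference, SHRSP minus WKY, in the vehicle arrays than in the drug arrays. The difference of the 2 strain differences was tested after the values were seen, over all probes, and 49 passed (0.196%), 39 of them more positive in the vehicle arrays, and 44 of them also called there. They included 5 of the 25 injury genes and 4 of the 34 matrix genes, Timp1 being in both lists. Gpnmb differed by 1.04 in the vehicle arrays and -0.04 in the drug arrays, a gap of 1.08 ± 0.16 (limma, adjusted p = 0.00468), and Timp1, which inhibits metalloproteinases, by 0.66 and -0.11, a gap of 0.77 (adjusted p = 0.00518). Spp1 was at 0.68 and -0.23, Eln at 0.52 and -0.29, Cd44 at 0.49 and -0.30, Tnc at 0.60 and 0.15 and Col15a1 at 0.16 and -0.42. In the drug arrays Eln and Cd44 were called lower in SHRSP (limma, adjusted p = 0.0208 and 0.0189). The Col15a1 difference was larger in the drug arrays than in the vehicle arrays. Both Havcr1 probes moved the same way, from 3.13 to 0.25 (gap 2.88 ± 0.39, adjusted p = 0.00167) and from -0.74 to -2.35 (gap 1.61, adjusted p = 0.0107). On the second of these probes the strains differed more in the drug arrays. Without the H2O arrays 5 probes of all passed, the first Havcr1 probe among them (gap 2.52, limma, adjusted p = 0.0279). Gpnmb (0.84, adjusted p = 0.175), Timp1 (0.63, adjusted p = 0.164) and Eln (0.81, adjusted p = 0.114) kept the sign and did not pass. The same held for the second Havcr1 probe (1.25, adjusted p = 0.184), Cd44 (0.61, adjusted p = 0.331), Tnc (0.30, adjusted p = 0.37) and Spp1 (0.67, adjusted p = 0.463). No macrophage gene but Gpnmb and no class II gene passed this test, which does not show equal differences: the median strain difference of the macrophage list was 0.44 in the vehicle and 0.25 in the drug arrays. The median gap over the genes of a list was 0.17 for macrophages, 0.12 for the whole MHC list, 0.20 for the matrix and 0.30 for injury.

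**Figure D5:**
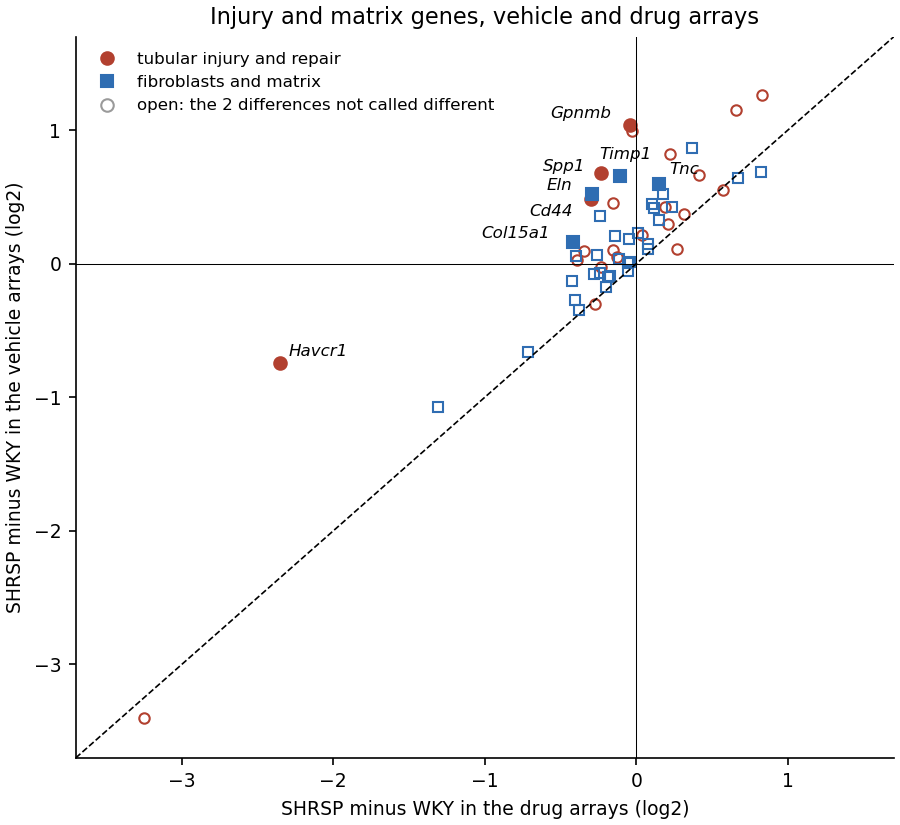
Each point is a gene of the injury list (circles) or the matrix list (squares, also for genes in both), with SHRSP minus WKY (log2) in the 24 drug arrays on the horizontal axis and in the 16 vehicle arrays on the vertical axis. Filled points passed the test of the gap; they lie above the dashed line of equal differences, and Havcr1, drawn for its second probe, is at -2.35 and -0.74.

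Of 13 smooth muscle and pericyte genes 5 were higher and 1 lower, and the sums were apart, 103 to 113 in SHRSP and 85.2 to 89.4 in WKY. Tagln, an actin-binding protein of smooth muscle, read 3.71, 4.10 and 4.32 in SHRSP and 2.82, 3.31 and 3.57 in WKY, and differed by 0.80 ± 0.11 (limma, adjusted p = 5.6e-06). Calponin, Cnn1, differed by 0.58, Tpm2 by 0.51, smooth muscle myosin, Myh11, by 0.34 and Myl9 by 0.27, and Smtn by -0.21. Of 18 endothelial genes 6 were higher, among them Pecam1 (0.50), Sox17 (0.42) and the VEGF receptor Kdr (0.38), and 2 lower, Vwf and the nitric oxide synthase Nos3 (-0.21). Of 16 podocyte genes 4 were higher and 1 lower, with Ptpro at 0.33 and Wt1 at 0.29.

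Of 26 genes of vasoactive peptides, their receptors and the nitric oxide pathway 3 were higher and 5 lower. Gucy1a1, the alpha subunit of the soluble guanylate cyclase that nitric oxide activates, read -0.66, 0.05 and 0.21 in SHRSP and 1.02, 1.62 and 1.90 in WKY. The strains did not overlap, and the difference was -1.64 ± 0.09 (limma, adjusted p = 1.6e-12). A second Gucy1a1 probe differed by -0.30 (adjusted p = 0.00368), with strains that overlapped. Its partner Gucy1b1 differed by -0.27 with overlap, and Ddah2, which degrades an inhibitor of nitric oxide synthase, by -0.34. The other calls in this list were Nos3, Vip (-0.32), Adm (0.36), Adra2a (0.22) and Adra2b (0.27). The renin-angiotensin list showed little: of 14 genes Agtr1b was higher (0.21) and Mme (-0.24), Anpep (-0.18) and Agtr1a (-0.17) lower, and the converting enzyme Ace (-0.02) and angiotensinogen, Agt (0.03), did not pass.

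In arachidonic acid metabolism 8 of 34 genes were higher and 7 lower. Besides Ephx2 and Pla2g4a, lower genes were the prostaglandin D synthase Ptgds, at 3.59, 4.07 and 4.34 in SHRSP and 4.71, 5.06 and 5.19 in WKY (-0.98 ± 0.09, limma, adjusted p = 8.5e-09), and Cyp2c11 (-0.60). The secreted phospholipase Pla2g2a was higher (0.70), as were the thromboxane synthase Tbxas1 (0.40) and the prostaglandin receptor Ptger3 (0.36). Probes of the Cyp2c and Cyp4a genes can share transcripts of near-identical copies, so Cyp4a1 (0.34) and Cyp4a3 (-0.33) are uncertain.

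Of 25 genes of sodium transport 5 were higher, among them the kinase Sgk1 (0.44), the thiazide-sensitive cotransporter Slc12a3 (0.38) and the cotransporter Slc12a2 (0.26), and 1 lower, the proton exchanger Slc9a3 (-0.18). Slc12a3 read 5.91, 6.15 and 6.41 in SHRSP and 5.60, 5.84 and 5.93 in WKY, an overlap at the border (0.38 ± 0.05, limma, adjusted p = 7.3e-06). Potassium and chloride channel genes counted 4 higher and 3 lower of 26, with the smooth muscle channel subunit Kcnmb1 at 0.93, Kcne1 at -1.16 and Kcnk3 at -0.36. Proximal tubule genes counted 3 higher, the lactate transporter Slc5a12 (0.61), the water channel Aqp1 (0.36) and the sulfate transporter Slc13a1 (0.18), and 9 lower of 28, from Slc5a2 (-0.33) to Alpl (-0.16). Thick ascending limb genes had 3 higher and 2 lower of 10, and distal convoluted tubule genes 3 higher and none lower of 13. Among the latter was Kl, klotho (1.64), at -0.10, 0.60 and 1.80 in SHRSP and -1.40, -1.255 and 0.31 in WKY. Its strains overlapped, and its WKY median was near the floor, on which the size depends in part. Principal cell genes had 3 higher of 16 and none lower, and intercalated cell genes 2 higher and 4 lower of 14.

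Fatty acid oxidation genes leaned higher, 14 of 46 against 6 lower, with a median of 0.08. Acox2, a peroxisomal oxidase of branched fatty acids and bile acid intermediates, read 3.45, 3.92 and 4.19 in SHRSP and 1.60, 2.08 and 2.34 in WKY, apart by 1.90 ± 0.11 (limma, adjusted p = 4.0e-12). Angptl4, an inhibitor of lipoprotein lipase, differed by 1.07, the thioesterase Acot3 by 0.96, Pdk4 by 0.70, Ehhadh by 0.55 and Acsm3 by 0.50. Lower were Cpt1b (-0.34), Acot8 (-0.30), Acsm1 (-0.27), Ucp3 (-0.26), Bdh1 (-0.25) and Cyp4a3. Of 32 genes of cholesterol and fatty acid synthesis 2 were higher and 6 lower, with the largest in Fdft1, whose second probe was at -0.31. Scd2 was among the higher genes, at 2.42, 2.62 and 3.13 in SHRSP and -0.75, -0.39 and -0.27 in WKY, without overlap.

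Detoxifying enzymes held large differences in both directions. Inmt, which methylates indoles and thioethers, read 5.40, 5.68 and 5.88 in SHRSP and 3.49, 3.91 and 4.07 in WKY, a difference of 1.78 ± 0.07 (limma, adjusted p = 2.9e-15) that ran from 1.71 to 1.82 across vehicles. Catalase, Cat, differed by 1.00 and the phagocyte oxidase subunit Ncf4 by 0.82, in a list of 32 oxidant genes with 6 higher and 4 lower. Among 36 aldehyde, alcohol and keto reductases and esterases 3 were higher and 8 lower, with Ces1e at -1.57, Aldh8a1 at -1.26 and Cbr1 at least 3.59-fold lower. Glutathione genes counted 7 higher and 8 lower of 33, glucuronidation and sulfation genes 6 and 6 of 19, cytochrome P450 and steroid genes 8 and 4 of 31, and organic ion transporters 6 and 6 of 34. Gst and Cyp genes have close copies and are uncertain singly.

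Complement and coagulation genes had 13 higher and 6 lower of 35. Besides the C1q genes, the decay factor Cd55 (0.60), C2 (0.55), Cfd (0.53) and Cfi (0.39) were higher, and C6 (-1.06), Masp1 (-0.63) and C5 (-0.50) lower. Chemokines and cytokines had 12 higher and 6 lower of 40, led by Ccl19 (1.07) and Ccl21 (1.05), the ligands of CCR7 that guide dendritic cells and T cells, and by Tgfb2 (0.89). Ccl19 read 2.56, 3.35 and 4.05 in SHRSP and 2.01, 2.27 and 2.39 in WKY, without overlap (adjusted p = 1.3e-07, limma). Interleukin 18, Il18, was higher (0.57), and Ccl3 (-0.91), Ccl2 (-0.43) and Il33 (-0.37) were lower. Interferon response genes were near the background, 4 higher and 2 lower of 30.

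Chaperone and unfolded protein genes were 10 higher and 0 lower of 31, with a median of 0.12, including Sdf2l1 (0.52), Hspb1 (0.50), Hsph1 (0.40), Creld2 (0.39) and Hspa5 (0.24), beside the discordant Atf6. Immediate early genes were 6 higher and 0 lower of 28, respiratory chain genes 0 higher and 5 lower of 45 (Ndufb8 at -0.43), clock genes 4 and 5 of 18 (Cry1 0.64, Npas2 0.50, Dbp -0.52), and cell cycle genes 7 and 6 of 33. Lysosomal genes had 6 higher and 7 lower of 34. Ctsh, cathepsin H, was the extreme there, at the floor of -1.40 on every SHRSP array and 5.16, 5.65 and 5.92 in WKY, with a good flag on 1 SHRSP array; its difference of -6.99 depends on the floor. Glycolysis and gluconeogenesis genes counted 5 higher and 3 lower of 29 and amino acid genes 8 and 8 of 55. Liver genes (0 higher and 1 lower of 5), adrenal genes (0 and 0 of 6), red cell genes (1 and 0 of 3) and skeletal muscle genes (1 and 0 of 6) gave few calls.

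A panel of 32 genes proposed in hypertensive rats, 23 of them measured, had 4 higher and 3 lower. Ephx2, Spon1 (-0.31), which encodes spondin 1, and Folh1 (-0.24) were lower, and Acsm3 (0.50), Gstm1 (0.41), the nuclease Endog (0.39) and the lipid receptor S1pr1 (0.20) higher. The fatty acid translocase Cd36 (0.59, limma, adjusted p = 0.0755), adducin, Add1 (0.15), the phosphatase Ptprj (0.20), kallikrein, Klk1 (-0.16), and Slc34a1 (0.06) did not pass. Cd36 values ranged from 0.39 to 2.29 in SHRSP and -0.05 to 1.91 in WKY.

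Whether the strain difference itself varied with the vehicle was tested with the interaction, which 74 probes passed (0.296%). The named gene with the smallest p was Ddx24, a helicase of ribosome assembly (limma, adjusted p = 1.82e-08). Its strain difference was 0.05 in H2O, 0.21 in Solvent B, 0.05 in Solvent C and 5.16 in Solvent A, where 1 WKY spot was missing and the other was at the floor of -1.40 with a negative flag, and the values of a second Ddx24 probe there were 1.86 and 2.00 in WKY and 1.96 and 2.09 in SHRSP. Mtres1 (adjusted p = 0.000105) differed by 1.64 to 3.02, the myosin heavy chain Myh9 (adjusted p = 0.00458) by 2.07 to 3.08, and Eea1 (adjusted p = 0.00458) by 1.76 to 3.21, each higher in SHRSP in all 4 vehicles on these probes. Plpp5 (adjusted p = 0.0022) was at the floor on all WKY arrays, so the size of its difference in each vehicle depends on the floor. The WKY median of Mtres1 was -1.36, beside the floor, and the lowest WKY value of this Eea1 probe was at the floor. How these 2 genes vary with the vehicle depends in part on the floor too. The other Myh9 probes differed by 0.44 and -0.08 with strains that overlapped, and the other Eea1 probes, at -0.02 and -0.10, were not called.

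Genes next to each other among the 10437 placed in RefSeq order sometimes differed together. Of adjacent pairs with both genes called, 405 went the same way and 316 opposite ways. With 13.1% of all 10455 genes higher and 11.4% lower, many such pairs arise without any link between neighbours. Whether the pairs and runs given here exceed what these shares alone would give was not tested. In 4 pairs both genes differed by at least 2-fold in 1 direction: Slfn9 (1.31) and Slfn4 (2.14), Albfm1 (-3.12) and Afm (-3.80), Tspyl4 (-1.11) and Nt5dc1 (-1.24, with -0.15 on a second probe), and Ccl19 and Ccl21 (1.07 and 1.05). The longest runs had 5 genes, Emc3, Fancd2, Fancd2os, Vhl and Irak2 lower by -0.63 to -0.13, Tlr7, Tlr8, Tmsb4x, Rab9a and Trappc2 higher by 0.27 to 1.60, and Syne4, Sdhaf1, Lrfn3, Tyrobp and Aplp1 higher by 0.14 to 0.44. Slfn, Ccl21 and albumin family genes have close relatives, and probes can read more than one of them.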

How the data were processed

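Kidney total RNA was made into Cy5-labelled cRNA for CodeLink arrays, per the labels' protocols. The authors' array files list a normalised intensity and a quality flag by probe, per the file headers; the sources used here do not name the scanner software or the normalization. To judge by the values, the authors had scaled each array to a median intensity of 1, and had subtracted background, since 9269 values were not above 0. The deposited series table held the same intensities (largest difference 0 over 1337935 values compared), and 0 of 780 pairs of arrays were identical.

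The intensities were quantile normalised, floored at 0.38, about percentile 1 of the values with a good flag, and taken to log2. A normexp background correction is an alternative, since the values were already background-subtracted. Of 33849 probes, 24993 were tested: those flagged good on both arrays of 1 or more groups, with no group lacking values. The array files were tied to GEO's probe table by their values (33799 probes matched exactly). Of the probes 16753 had 1 gene, 165 several and 16931 none; symbols were updated through a RefSeq table of assembly GRCr8, used for names, gene order and promoters.

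Using lmFit and eBayes of limma 3.58.1 (R 4.3.3), a linear model was fitted to the 40 arrays, a mean for each group, leaving 20 residual degrees of freedom, and Benjamini-Hochberg adjusted p-values were taken over all tested probes. The contrast was SHRSP minus WKY with equal weight for the 4 vehicles; each vehicle, the strain by vehicle interaction, the 6 drugs and the gap between vehicle and drug arrays used the same fit, the gap being chosen after the values were seen. For bounds of at least N-fold the dim strain's arrays counted at the floor, at their lowest intensity with a good flag or at the probe's value, whichever was highest. In lists the brightest probe with a value on every array stood for a gene. The code was tested on simulated data.

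Genes were named by rule: the 12 highest and 12 lowest genes with all probes agreeing in the 4 vehicles, the 8 highest and 8 lowest genes of 1 probe without overlap, up to 3 members of each list by smallest p, the 6 widest opposite pairs, the candidate panel, the 5 smallest interaction p-values and up to 6 bounds each way. Other list members, the discordant probes and the neighbouring pairs and runs were picked once their values had been seen. The comparison, its lists and this rule were chosen with earlier results of these data known. Alternatives tried were median scaling, normexp, the deposited series table, other filters and floors, only the vehicle arrays, and these with vehicle as a fixed block. Further ones were array weights, trend and robust eBayes, the scan session as a random block, and leaving out each array and each vehicle. The alternative without POOR spots was chosen after seeing the data. Tables and plots were made in Python 3.11.15 (pandas 2.3.3, NumPy 2.4.6, Matplotlib 3.10.9).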

Additional observations from a re-analysis of the deposited data

Results flagged for a closer look

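In 162 groups of 8 arrays of the named probes, 9 held an array far from the other 7 by Dixon's criterion, which chance alone does in about 1 group in 20. Gtpbp4 read 4.81 in SHRSP H2O replicate 2, where the others read 5.21 to 5.57. Fibin read -1.39 in WKY Solvent B replicate 1, against -1.03 to -0.82. Ros1 read 0.77 in WKY H2O replicate 1, against 1.36 to 1.85. On its second probe it read -1.28 in SHRSP Solvent C replicate 2, a spot flagged as empty, against -1.40 to -1.39. Car14 read 1.93 in SHRSP Solvent B replicate 2, against 1.41 to 1.63. Cfap300 read -1.40 in SHRSP Solvent C replicate 2, a spot flagged as empty, against -0.50 to 0.02. Tgm2 read -1.32 in SHRSP H2O replicate 1, also flagged as empty, with the others at the floor. Trps1 read -1.09 in SHRSP Solvent A replicate 2, and Spire1 3.46 in SHRSP Solvent B replicate 2, against 3.64 to 3.73.

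In 5 named genes the strain difference varied between vehicles in the interaction test (limma, adjusted p of 1.82e-08 for Ddx24, 0.000105 for Mtres1, 0.0022 for Plpp5, 0.00458 for Myh9 and 0.00458 for Eea1). For Ddx24 the difference in Solvent A rested on 1 WKY spot at the floor. For the other genes the sign was the same in the 4 vehicles.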

How the results depend on the processing

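Among the named probes that an alternative could test (139 where a good flag was needed on all 40 arrays, 221 to 223 under the others), no called difference changed its sign; up to 14 lost their call, the most without H2O, and 11 with the floor doubled. The number of strain calls ran from 3574 with a good flag required on all 40 arrays, where fewer probes are tested (1780 higher; 64 genes with all probes higher and 63 lower; H2O 1517, Solvent A 1139, Solvent B 1246, Solvent C 915), to 6816 with array weights (Solvent A 5282, Solvent B 3987). Without 1 array in turn it ran from 4711 to 5320, with 2405 to 2759 higher and 2305 to 2681 lower, 89 to 110 genes with all probes higher and 70 to 91 lower, 1435 to 2517 calls in H2O, 1027 to 1884 in Solvent A, 1106 to 1993 in Solvent B, 1226 to 1725 in Solvent C, 6358 to 6538 in the drug arrays, 39 to 281 for the interaction and 28 to 183 for the gap between vehicle and drug arrays. For a single vehicle such a fit leaves 1 array in a strain, which is assumed to vary like the others. Fitting only the 16 vehicle arrays gave 3154 calls in Solvent B.

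The interaction was the least stable count: 49 with median scaling, 27 with normexp, 16 with the deposited series table, 120 with no filter, 10 where all arrays had to be good, 26 and 169 with the floor halved and doubled, 136 with the scan session as a random block, 37 with trend and robust, 114 with array weights, 23 without H2O and 38 without Solvent C. It was 39 without WKY Solvent B replicate 2 and 281 without WKY H2O replicate 2. The gap between vehicle and drug arrays passed at 21 probes in the series table, 77 with no filter, 20 where all arrays had to be good, 88 with the session block, 5 without H2O, 29 without Solvent A and 106 without Solvent C; it was 28 without WKY Solvent A replicate 2 and 183 without SHRSP H2O replicate 1. Higher members numbered 14 to 18 of the macrophage list, 8 to 11 of the MHC list and 9 to 16 of the injury list, each lowest where a good flag was needed on all 40 arrays, and 10 to 16 of the matrix list, lowest without Solvent B; these counts were added after seeing the data. The share of higher calls ran from 49.2% to 56.5% (51.1% as reported). The labels give no replicate numbers, and those used here follow the order of the samples, so single arrays of the strains could not be paired. Strain with vehicle as a fixed block, on the 16 vehicle arrays alone, gave 5793 calls, which held 87% of the calls reported. The cause of these changes was not tested. Precision is limited by 2 arrays per strain and vehicle and by dim probes near the floor.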
